A study of Mus musculus with 12 samples.

Results

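The 10 genes studied here act in sterol efflux and lipoprotein metabolism, and their expression was followed in mouse liver after acute iron overload, dexamethasone or their combination. They were taken by name as the rows of the deposited read counts whose Ensembl identifiers map to Abca1, Abcg1, Abcg5, Abcg8, Scarb1, Mylip, Lpl, Lipc, Lcat and Pltp, which makes 10 of 55414 genes in the table. All 10 passed the filter on low counts and stood among the 13857 genes tested. The rule itself reads no measured value, though it was written with earlier results of these data known.

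Female C57BL/6J mice of 8 to 12 weeks were injected intraperitoneally with 0.9% NaCl or with 300 mg/kg FeSO4, and received PBS or 10 mg/kg dexamethasone (DEX), a synthetic glucocorticoid, 6 h later. Livers were taken 2 h after the second injection, so that every animal was sampled 8 h after the first. This gave 4 groups of 3 mice, NaCl/PBS, NaCl/DEX, FeSO4/PBS and FeSO4/DEX, which share strain, sex and timing and carry no transgene or deletion in the labels. Each library came from whole liver RNA, and nothing beyond the replicate numbers describes the individual mice. The comparisons address what iron does to hepatic gene expression and how the response to DEX fares in iron-loaded liver.

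Cholesterol leaves cells through ATP-binding cassette transporters. ABCA1 loads lipid-poor apolipoprotein A-I, ABCG1 loads mature HDL, and the ABCG5-ABCG8 heterodimer secretes sterols from hepatocytes into bile. SR-BI, the product of Scarb1, takes cholesteryl ester from HDL into the liver, whereas MYLIP (also known as IDOL) is a ubiquitin ligase that sends lipoprotein receptors to lysosomes. Lipoprotein lipase (Lpl) and hepatic lipase (Lipc) hydrolyse lipoprotein lipids, LCAT esterifies cholesterol on HDL, and PLTP moves phospholipids between particles. Abca1, Abcg1, Abcg5, Abcg8, Mylip, Lpl and Pltp are known targets of the liver X receptors (LXR), nuclear receptors that are activated by oxysterols and bind direct repeats spaced by 4 bases (DR4) together with RXR.

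The genes lie on 7 chromosomes of GRCm39. Abca1 (ENSMUSG00000015243) spans chr4:53030787-53159900 on the minus strand, and Abcg1 (ENSMUSG00000024030) spans chr17:31276649-31336969 on the plus strand. Abcg5 (ENSMUSG00000040505, chr17:84964851-84990494, minus) and Abcg8 (ENSMUSG00000024254, chr17:84983730-85007765, plus) form a head-to-head pair. Scarb1 (ENSMUSG00000037936) spans chr5:125353547-125418176 on the minus strand and Mylip (ENSMUSG00000038175) spans chr13:45543215-45565501 on the plus strand. Lpl (ENSMUSG00000015568, chr8:69284603-69360100, plus) and Lcat (ENSMUSG00000035237, chr8:106665839-106670046, minus) share chromosome 8. Lipc (ENSMUSG00000032207) spans chr9:70705410-70859508 and Pltp (ENSMUSG00000017754) spans chr2:164677702-164701743, both on the minus strand.

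The stretches upstream of Abca1 and Pltp are shown because these genes had the largest rises after FeSO4. Each run holds the 250 bases before the start of the RefSeq transcript (promoter table of build GRCm38.p6), and its place was found by matching the letters to GRCm39: chr4:53159896-53160145 (minus strand) for Abca1 and chr2:164699629-164699878 (minus strand) for Pltp. The capitals in Abca1 mark CACGTG, an E-box, with its first base at position -147 from the start, and a stretch with its first base at -67 that, read on the other strand, differs in 3 letters from the DR4 motif. The Pltp run has no capitals because none of the motifs searched was found there.
Abca1: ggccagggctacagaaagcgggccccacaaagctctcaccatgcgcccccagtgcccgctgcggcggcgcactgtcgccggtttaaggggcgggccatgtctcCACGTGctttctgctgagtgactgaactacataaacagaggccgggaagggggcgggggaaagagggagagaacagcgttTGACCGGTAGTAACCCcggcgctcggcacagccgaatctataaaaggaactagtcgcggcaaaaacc
Pltp: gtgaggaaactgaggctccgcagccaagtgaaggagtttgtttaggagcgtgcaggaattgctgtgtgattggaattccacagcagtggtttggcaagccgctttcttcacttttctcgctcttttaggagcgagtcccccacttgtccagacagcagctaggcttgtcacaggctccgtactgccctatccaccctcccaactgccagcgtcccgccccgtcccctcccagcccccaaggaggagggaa

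The motifs were searched on both strands of windows reaching from 250 bases before to 50 bases after the start, in 9 promoters of the 7 members that the RefSeq table holds; Abcg1, Scarb1 and Lpl had no entry. DR4, a direct repeat of AGGTCA with any 4 bases between, had no exact match in a member, and 0.0152% of all 32851 promoters held it. With up to 3 mismatches it was found upstream of Abca1, Lcat and Lipc, and in 21.9% of all promoters. CACGTG was found in Abca1 alone among the members and in 7.15% of all promoters. The glucocorticoid response element, GNACA and TGTNC with any 3 bases between, was in no member promoter and in 0.475% of all. Between the starts of the canonical transcripts of Abcg5 and Abcg8 lie only 12 bases, ttggccaacgat (GRCm39, chr17:84990440-84990451, read on the plus strand), shown because they separate a pair whose ratio of reads differed between groups.

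The 12 libraries held 16335651 to 23827340 counts and 17493 to 18579 detected genes. The FeSO4/PBS library of mouse 1 differed most from its mates, with a chi-square per gene of 71.4 and 89.5 against 18.3 to 37.0 for all other pairs of 1 group. Hepatocyte markers such as Alb were abundant in every library, and 6 of 8 pancreatic acinar markers were at 0 in 3 groups and 5 of 8 in FeSO4/PBS. TMM scaling factors ran from 1.14 to 1.16 in NaCl/PBS and from 0.87 to 0.95 in the FeSO4 groups. Scaling by library size alone shifted the median LFC (log2 fold change) of all genes in FeSO4/PBS against NaCl/PBS from -0.02 to -0.34. Values below are normalized counts (reads scaled to the mean effective library), given in the order of mouse 1, 2 and 3, and the errors are SDs of 3 mice. A gene was called when its false discovery rate (FDR, edgeR quasi-likelihood test, Benjamini-Hochberg over all tested genes) was 0.05 or less. The edgeR p-values set a difference between groups against the spread between mice, estimated over all 4 groups and moderated across genes. The labels do not say whether mice were housed or processed together. A difference in housing or processing between groups could therefore not be told apart from a treatment effect.

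In the liver of mice injected with FeSO4, 4 of the 10 genes were upregulated against NaCl/PBS (Abca1, Pltp, Scarb1 and Lipc), 2 were downregulated (Abcg1 and Mylip) and 4 did not pass the test. Of all tested genes, 27.2% were called higher, 27.3% lower and 54.5% in either direction, so 6 called members of 10 is a share near the background. With an LFC beyond 1 required, 2 were higher (Abca1 and Pltp) and 1 lower (Abcg1), against 12.5% and 14.7% of all genes. The median size of the LFC was 0.60 over the members and 0.58 over all genes. The 2 groups of mice did not overlap for 6 members, against 60% of all tested genes.

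**Figure D1:**
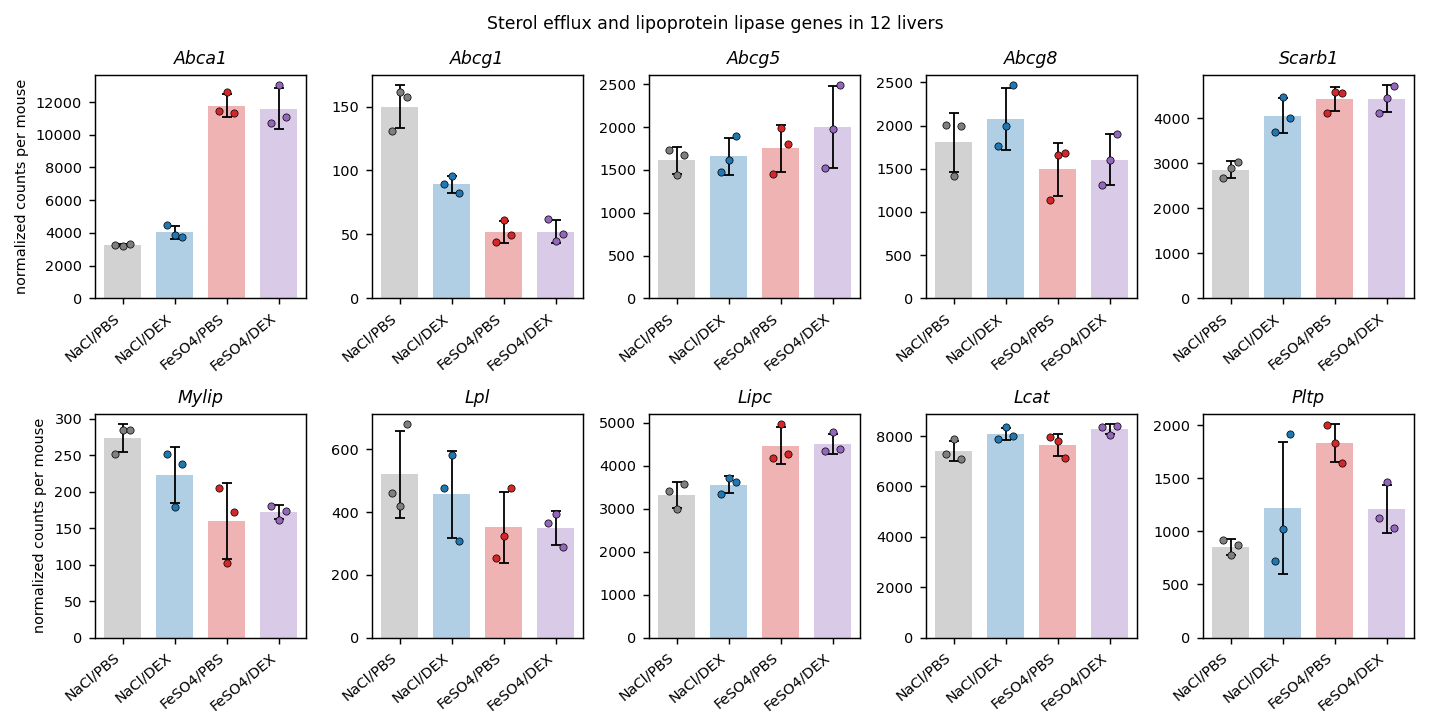
Normalized counts (linear axis from 0) of each gene in 12 livers, by group. Points are mice, bars are means and error bars are SDs of 3 mice. Abca1 rose from a mean of 3234 in NaCl/PBS to 11777 in FeSO4/PBS, Abcg1 fell from 150.0 to 51.7, and the third NaCl/DEX mouse stood apart for Pltp at 1919.

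Abca1 showed the largest change of the set. Its normalized counts were 3238, 3174 and 3291 in NaCl/PBS and 11425, 12596 and 11308 in FeSO4/PBS. All 3 iron-loaded mice stood above every control, and the spread within either group was small beside the gap. The change was 3.64-fold (95% interval 3.06 to 4.33; LFC 1.86 ± 0.12 SE, FDR = 4.9e-08). In the mice that also received DEX, the values were 4462, 3882 and 3746 without iron and 10701, 13031 and 11073 with iron, again without overlap. There the change was 2.88-fold (interval 2.43 to 3.42; LFC 1.53, FDR = 3.2e-07).

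DEX on its own was followed by a small difference in Abca1 that did not pass the test, with an LFC of 0.32 (FDR = 0.082) although the 2 groups did not overlap. It was called by DESeq2 (adjusted p = 0.016), in a fit of these 6 libraries alone (FDR = 0.032) and without FeSO4/PBS mouse 1 (FDR = 0.041). In iron-loaded liver DEX left Abca1 at an LFC of -0.02, with an interval of -0.26 to 0.22. The difference between the iron effects with and without DEX was -0.34 and did not pass the test (FDR = 0.25). The genes whose log2 CPM followed Abca1 most closely over the 12 libraries were Crcp, Rbbp6 and Zfand5, with root mean square differences of 0.11, 0.13 and 0.14 among 8949 genes compared.

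Abcg1, which shares its LXR regulation and its place in HDL loading with Abca1, went the other way. It was measured at 131, 162 and 157 normalized counts in NaCl/PBS, 89.1, 95.9 and 82.6 in NaCl/DEX, 44.4, 61.0 and 49.7 in FeSO4/PBS, and 61.9, 44.9 and 49.9 in FeSO4/DEX. Each of the 9 treated mice stood below all 3 NaCl/PBS mice, and the iron-loaded mice stood below the NaCl/DEX mice. These levels rest on 33 to 186 reads per library.

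FeSO4 lowered Abcg1 to 0.35 of the NaCl/PBS level (interval 0.26 to 0.46; LFC -1.53 ± 0.20, FDR = 2.1e-05). In the DEX-treated mice the iron effect was -0.76 (FDR = 0.0073), and it was called there whichever mouse was left out (FDR up to 0.028). DEX alone gave an LFC of -0.75 (FDR = 0.016). That last call was lost, with FDR from 0.053 to 0.072 and LFC from -0.74 to -0.68, when NaCl/PBS mouse 2 or 3 or NaCl/DEX mouse 1 or 3 was left out. After iron, DEX gave 0.02, with an interval of -0.43 to 0.47. The 2 iron effects differed by 0.77, with an unadjusted p of 0.016 and FDR = 0.13 in the edgeR fit.

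ABCG1 is abundant in macrophages, and most markers of these cells moved in the same direction after FeSO4. Of 10 Kupffer cell and macrophage markers, 8 were called lower in FeSO4/PBS against NaCl/PBS and 6 in FeSO4/DEX against NaCl/DEX. Of all tested genes, 27.3% and 20.9% were called lower there. Their median LFC was -0.75, -0.68 and, after DEX alone, -0.12. Their summed level was 495 to 568 CPM in NaCl/PBS, 456 to 525 in NaCl/DEX, 286 to 336 in FeSO4/PBS and 250 to 385 in FeSO4/DEX, and no marker was at 0. In FeSO4/PBS against NaCl/PBS, Marco, a macrophage scavenger receptor, had an LFC of -1.81. Csf1r, the receptor of a macrophage growth factor, had an LFC of -1.16, and these were the lowest of the 10. Cd68 went the other way at 0.20 (FDR = 0.51), and C1qb was not called at -0.27 (FDR = 0.12). In bulk tissue, fewer cells of a type and less RNA per cell cannot be told apart, and the part of these cells in the Abcg1 result was not tested. Of the genes closest to Abcg1 in pattern, Slfn5, Ccnd2 and Msr1 (differences of 0.13, 0.13 and 0.15), Msr1 encodes a macrophage scavenger receptor.

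Abcg5 and Abcg8, whose products work only as a pair, did not pass the test in any of the 5 comparisons. Abcg5 was at 1731, 1437 and 1669 normalized counts in NaCl/PBS and at 1458, 1995 and 1803 in FeSO4/PBS, which overlap. Its LFC was 0.12 (interval -0.25 to 0.48) without DEX and 0.27 (interval -0.10 to 0.63) with DEX. Abcg8 was at 2003, 1416 and 2000 in NaCl/PBS and at 1139, 1659 and 1682 in FeSO4/PBS. Its LFC was -0.28 (interval -0.69 to 0.13) without DEX and -0.37 (interval -0.78 to 0.04) with DEX. Abcg8 was called lower in the DEX mice without FeSO4/PBS mouse 1 (-0.41, FDR = 0.049) and without the filter on low counts (-0.40, FDR = 0.023). Under scaling by library size alone it was called lower in both (-0.59 and -0.57, FDR = 0.018 and 0.027).

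The ratio of Abcg5 to Abcg8 reads, taken within each library and so free of scaling, separated the iron-loaded mice from the others. It was 0.86, 1.02 and 0.83 in NaCl/PBS, 0.83, 0.81 and 0.77 in NaCl/DEX, 1.28, 1.20 and 1.07 in FeSO4/PBS, and 1.16, 1.24 and 1.31 in FeSO4/DEX. All 6 iron-loaded mice had a higher ratio than all 6 mice given NaCl. On the log2 scale the mean ratio was higher with FeSO4 by 0.39 among PBS mice and by 0.62 among DEX mice. Each of these comparisons of 3 against 3 mice gave a two-sided exact permutation p of 0.1, the smallest this design allows (0.13 after adjustment over 4 comparisons). How often the ratios of other gene pairs separate these groups was not tested. Of single genes, 60% did not overlap between FeSO4/PBS and NaCl/PBS, and 55.9% between FeSO4/DEX and NaCl/DEX.

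Over all 12 mice, with the iron labels permuted within the PBS mice and within the DEX mice, the log2 ratio differed by 0.51 with an exact two-sided p of 0.005, the smallest that 400 permutations can give. This combined test was added after the ratios had been seen. The groups were already separate within the PBS and within the DEX mice, so its p could take no other value. It adds nothing to that separation. The NaCl/DEX and NaCl/PBS mice did not overlap in this ratio either, but they nearly touched. The lowest NaCl/PBS log2 ratio was -0.261 and the highest NaCl/DEX log2 ratio was -0.264. With DEX the log2 ratio differed by -0.16 without iron (exact permutation p = 0.1, again the smallest possible) and by 0.07 with iron (exact permutation p = 0.6). The former was -0.08 without NaCl/PBS mouse 2, and the latter -0.003 without FeSO4/PBS mouse 3, 0.03 without FeSO4/DEX mouse 3, 0.11 without FeSO4/DEX mouse 1 and 0.12 without FeSO4/PBS mouse 1. The 2 genes lie on opposite strands and share 108 exonic bases, 3.04% of the exons of Abcg5 and 2.81% of those of Abcg8, and the strand setting of the counting is not given in the sources used here. Reads from these bases therefore cannot be assigned to either gene with certainty.

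**Figure D2:**
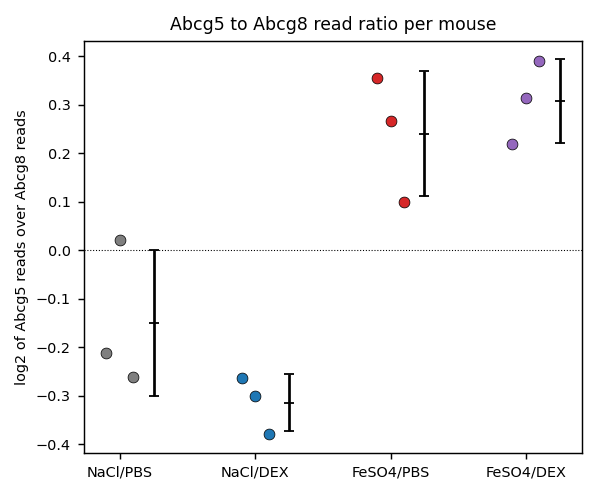
Log2 of Abcg5 reads over Abcg8 reads in each of 12 livers (points), with the mean and SD of 3 mice beside each group. The dotted line marks equal reads; the 6 iron-loaded mice sit between 0.10 and 0.39 and the 6 NaCl mice between -0.38 and 0.02.

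Scarb1, the hepatic HDL receptor, was the only member called higher after DEX alone. It was at 2663, 2886 and 3026 normalized counts in NaCl/PBS, at 3703, 4475 and 3999 in NaCl/DEX, at 4122, 4595 and 4563 in FeSO4/PBS and at 4121, 4461 and 4723 in FeSO4/DEX. Every treated mouse stood above every NaCl/PBS mouse, and the 3 treated groups overlapped. FeSO4 raised it 1.55-fold (interval 1.32 to 1.82; LFC 0.63, FDR = 2.4e-04) and DEX raised it 1.42-fold (interval 1.21 to 1.67; LFC 0.51, FDR = 0.0061).

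With both agents no further rise of Scarb1 was called, since the iron effect was 0.13 in DEX mice (FDR = 0.36) and the DEX effect was 0.00 in iron-loaded mice (interval -0.23 to 0.23). The 2 iron effects differed by -0.50 with an FDR of 0.069. DESeq2 called this difference (-0.54, adjusted p = 0.0076), as did edgeR with the size factors of DESeq2 (FDR = 0.04997) and edgeR without FeSO4/PBS mouse 1 (-0.60, FDR = 0.026). Furin, Bsdc1 and Adpgk had the patterns closest to Scarb1, with differences of 0.08, 0.08 and 0.11. Its exons share 157 and 234 bases with the predicted genes Gm71869 and Gm71870 on the opposite strand.

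Mylip, the ubiquitin ligase, was downregulated by FeSO4. It was at 252, 284 and 284 normalized counts in NaCl/PBS, 252, 180 and 238 in NaCl/DEX, 205, 103 and 172 in FeSO4/PBS, and 181, 162 and 174 in FeSO4/DEX. The FeSO4/PBS mice all stood below the NaCl/PBS mice. The LFC was -0.77 ± 0.21 (FDR = 0.0060), which equals 0.58 of the control level (interval 0.43 to 0.80). With DEX the iron effect was -0.37 (FDR = 0.17), and the NaCl/DEX and FeSO4/DEX mice overlapped. Under scaling by library size alone it was called there (-0.56, FDR = 0.039). DEX alone gave -0.29 (FDR = 0.40). The summed macrophage markers fell in the same groups, and their part in the Mylip result was not tested.

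Of the lipases, Lipc rose after FeSO4 while Lpl varied too widely between mice for a call. Lipc, made by hepatocytes, was at 3419, 2989 and 3570 normalized counts in NaCl/PBS, 3337, 3706 and 3622 in NaCl/DEX, 4182, 4956 and 4263 in FeSO4/PBS and 4347, 4775 and 4378 in FeSO4/DEX. All 6 iron-loaded mice stood above all 6 NaCl mice. The increase was 1.34-fold without DEX (interval 1.14 to 1.58; LFC 0.43, FDR = 0.0046) and 1.27-fold with DEX (interval 1.08 to 1.49; LFC 0.34, FDR = 0.021). Under scaling by library size alone these became 0.11 (FDR = 0.43) and 0.14 (FDR = 0.32), and neither was called. The call with DEX was also lost without NaCl/DEX mouse 1 (FDR = 0.087) or without FeSO4/DEX mouse 2 (FDR = 0.12) or mouse 3 (FDR = 0.059), and without the filter on low counts (0.32, FDR = 0.091).

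Lpl, the lipase of muscle, fat and macrophages that adult hepatocytes largely lack, was at 461, 419 and 679 normalized counts in NaCl/PBS, 476, 583 and 309 in NaCl/DEX, 255, 322 and 476 in FeSO4/PBS and 365, 393 and 289 in FeSO4/DEX. The groups overlapped in every comparison. The LFC after FeSO4 was -0.57 (interval -1.12 to -0.02), with an unadjusted p of 0.044 and an edgeR FDR of 0.075. It was called under scaling by library size alone (-0.88, FDR = 0.013), without the filter on low counts (FDR = 0.0012) and without FeSO4/PBS mouse 3 (-0.84, FDR = 0.018). It shrank to -0.33 (FDR = 0.33) without NaCl/PBS mouse 3 and to -0.38 (FDR = 0.24) without FeSO4/PBS mouse 1. Of 8 adipocyte markers, Adipoq, Lep, Retn and Slc36a2 had means of at most 0.34 normalized counts in each group. Plin1 was at 0 in NaCl/PBS and 4.46 in FeSO4/PBS, and Cfd at 0.28 and 1.36, both below the filter. Fabp4, which endothelial cells and macrophages also express, rose from 96.6 in NaCl/PBS to 473 in FeSO4/PBS, and Adrb3 fell from 80.6 to 29.9 (LFC -1.46, FDR = 0.021). The summed level of the 8 was 7.23 to 9.91 CPM in NaCl/PBS, 14.1 to 16.99 in NaCl/DEX, 21.8 to 28.03 in FeSO4/PBS and 22.5 to 30.3 in FeSO4/DEX. The part of adipose tissue, macrophages or endothelium in the Lpl values was not tested.

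Lcat, which is secreted by hepatocytes, had the steadiest level of the set. It was at 7278, 7876 and 7100 normalized counts in NaCl/PBS, 7891, 8352 and 8016 in NaCl/DEX, 7961, 7797 and 7134 in FeSO4/PBS, and 8371, 8049 and 8390 in FeSO4/DEX. The LFC after FeSO4 was 0.04, with an interval of -0.17 to 0.25. Under scaling by library size alone it turned to -0.28 and was called lower (FDR = 0.024), close to the median LFC of -0.34 over all genes under this scaling. Both DEX-treated groups stood above their PBS counterparts without overlap, with LFC of 0.12 in each and FDR of 0.46 and 0.85.

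Pltp rose after FeSO4 in the mice given PBS. It was at 916, 773 and 868 normalized counts in NaCl/PBS and at 2003, 1833 and 1646 in FeSO4/PBS, without overlap. The change was 2.14-fold (interval 1.46 to 3.16; LFC 1.10 ± 0.26, FDR = 0.0026). After DEX the picture was uneven, with 725, 1026 and 1919 in NaCl/DEX and 1130, 1461 and 1032 in FeSO4/DEX. The third NaCl/DEX mouse exceeded its mates, so that the group had a mean of 1223 and an SD of 621.

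The iron effect on Pltp in DEX mice was -0.02 (FDR = 0.96), and 0.46 (FDR = 0.061) without that mouse. The LFC after DEX alone was 0.52 (FDR = 0.22), 0.04 (FDR = 0.93) without mouse 3 and 0.79 (FDR = 0.039) without mouse 1. In iron-loaded liver, the 3 DEX mice stood below the 3 PBS mice, with an LFC of -0.60, an unadjusted p of 0.036 and an edgeR FDR of 0.76. The iron effects with and without DEX differed by -1.12 (FDR = 0.091). DESeq2 called this difference (-1.16, adjusted p = 0.030), as did edgeR without NaCl/DEX mouse 1 (-1.39, FDR = 0.019), while without mouse 3 it was -0.64 (FDR = 0.17). Without the filter on low counts Pltp was called after DEX alone (0.53, FDR = 0.0032), after DEX in iron-loaded liver (-0.61, FDR = 0.0051) and in the difference of the iron effects (-1.14, FDR = 1.2e-06).

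Pltp shares 1252 exonic bases, 21.2% of its merged exons, with Ctsa, which encodes the lysosomal protease cathepsin A on the opposite strand. Ctsa was at 2116 ± 44.7 normalized counts in NaCl/PBS and 2494 ± 188 in FeSO4/PBS, with an LFC of 0.24 (FDR = 0.078), and at 1884 ± 181 in NaCl/DEX and 2565 ± 229 in FeSO4/DEX, with an LFC of 0.44 (FDR = 0.0044). Without the strand setting, reads in the shared bases cannot be told apart. Over the 12 libraries Ctsa ran between 1566 and 2953 reads.

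**Figure D3:**
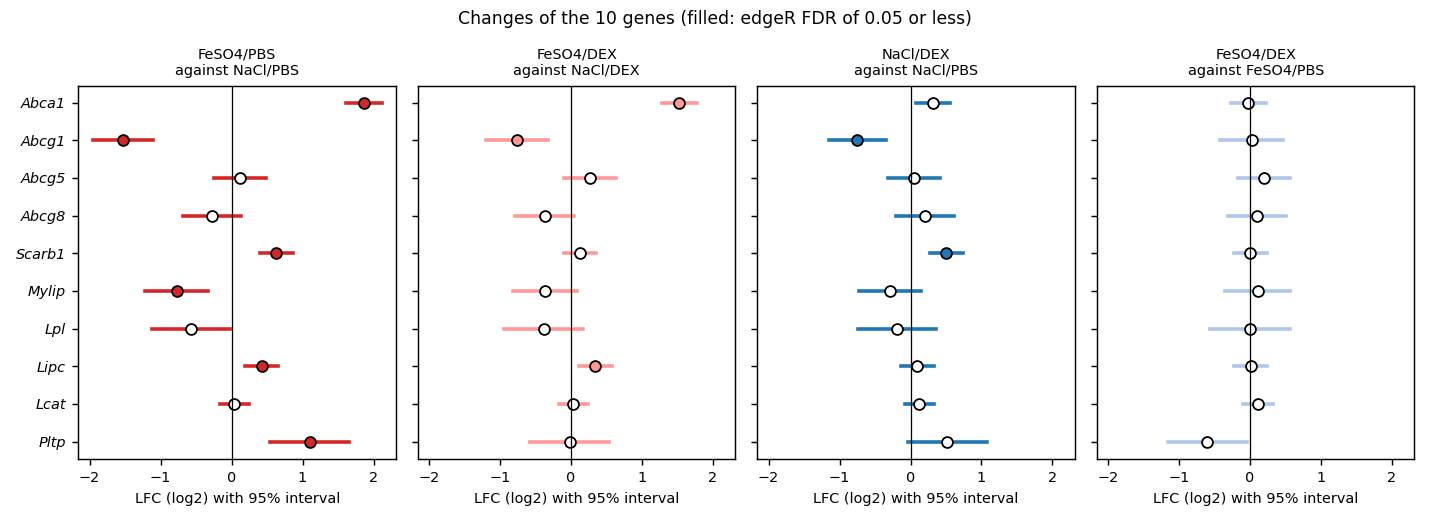
LFC (x axis, log2) of each gene in 4 comparisons, with 95% intervals from the edgeR fit as horizontal lines. Filled points are called at an FDR of 0.05 or less: 6 of 10 in FeSO4/PBS against NaCl/PBS, 3 in FeSO4/DEX against NaCl/DEX, 2 in NaCl/DEX against NaCl/PBS and 0 in FeSO4/DEX against FeSO4/PBS.

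Side by side, iron in DEX-treated mice gave 2 members called higher (Abca1 and Lipc), 1 lower (Abcg1) and 7 not called, against 22.4% of all tested genes higher, 20.9% lower and 43.3% in either direction. Beyond an LFC of 1, Abca1 was the 1 member left, and it was higher, against 10.6% of all genes higher and 9.83% lower. The groups did not overlap for 3 members there, against 55.9% of all genes. DEX alone gave 1 higher (Scarb1) and 1 lower (Abcg1), against 6.5% and 7.15% of all genes (13.7% in either direction). Beyond an LFC of 1 no member was left, against 2.97% of all genes higher and 3.41% lower, while 3 members had an unadjusted p under 0.05 and DESeq2 called 3 at any size. The groups of this comparison did not overlap for 4 members (Abca1, Scarb1, Lcat and Abcg1), against 37.9%. The comparison of DEX alone shares the NaCl/PBS mice with that of FeSO4/PBS, and the NaCl/DEX mice with that of FeSO4/DEX against NaCl/DEX. DEX in iron-loaded liver gave 0 called members by edgeR and by DESeq2, with 1 member (Pltp) at an unadjusted p under 0.05, and its groups did not overlap for 2 (Lcat and Pltp), against 9.3% of all genes. Over all 13857 genes edgeR called 0 in that comparison (0%), with 900 at an unadjusted p under 0.05, and DESeq2 called 5 higher and 5 lower. The difference between the iron effects was called for 0 members by edgeR, against 6.18% of all genes (2.99% higher and 3.2% lower, or 2.14% and 2% beyond an LFC of 1), with 3 members (Abcg1, Scarb1 and Pltp) at an unadjusted p under 0.05 and 2 (Scarb1 and Pltp) called by DESeq2.

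Levels were compared between genes as RPKM over the length of the canonical transcript. In NaCl/PBS the order was Lcat (218 ± 11.9 RPKM), Lipc (87.4 ± 7.92), Scarb1 (56.8 ± 3.63), Abcg5 (25.7 ± 2.47), Abcg8 (24.2 ± 4.54), Pltp (23.6 ± 2.01), Abca1 (15.9 ± 0.29), Lpl (6.37 ± 1.71), Mylip (4.50 ± 0.31) and Abcg1 (1.30 ± 0.14). Abcg5, Abcg8 and Pltp overlapped as neighbours in this order, and the other neighbours did not. In FeSO4/PBS Abca1 stood at 57.9 ± 3.50 RPKM and had moved from rank 7 to rank 4, with Pltp next at 50.7 ± 4.95. In FeSO4/DEX Abca1 was also at rank 4, at 57.0 ± 6.15 RPKM, and Pltp at 33.5 ± 6.24 overlapped with Abcg5. Abca1 and Abcg1 thus stood at 15.9 and 1.30 RPKM in NaCl/PBS and at 57.9 and 0.45 in FeSO4/PBS. The length of the merged exons of all transcripts was used as an alternative, a choice made after seeing the data. With it Abca1 was at rank 6 in NaCl/PBS and rank 3 in FeSO4/PBS, and Scarb1 fell to rank 5. Pltp was then at rank 7 in NaCl/PBS, FeSO4/PBS and FeSO4/DEX. In FeSO4/PBS it stood at 15.6 RPKM by this length, below Abcg5 at 24.9 and Abcg8 at 19.6.

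The genes closest in pattern to the other members, by the same measure, were Stat6, Parp9 and Tti1 for Mylip (differences of 0.13 to 0.17), Ppp3ca, Mprip and Nucb1 for Lipc (0.06 to 0.08), and Cdc37, Acads and Mars1 for Lcat (0.04 to 0.06). They were Txndc15, Cmtm8 and Mtarc1 for Abcg5 (0.11 to 0.12) and Dstyk, Lactb2 and Hps4 for Abcg8 (0.15 to 0.16). For Pltp they were Me1, which makes NADPH for lipid synthesis, Cryl1 and Uchl3 (0.24 to 0.29), and for Lpl they were Elp4, Vamp4 and Ankrd52 (0.21). The root mean square of the member's own deviation ran from 0.08 in Lcat to 0.86 in Abca1.

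Markers of other cells also moved after FeSO4. Of 6 tested neutrophil markers 5 were called higher, and their summed level was 5.94 to 14.6 CPM in NaCl/PBS and 38.3 to 46.1 CPM in FeSO4/PBS. Of 8 sinusoidal endothelial markers 2 were called higher and 4 lower, of 8 stellate cell markers 3 higher and 1 lower, and of 8 hepatocyte markers 4 higher. These counts stand against 27.2% of all tested genes called higher and 27.3% lower. Of the markers of lymphocytes 6 of 8 passed the filter, of adipocytes 2 of 8, of acinar cells 2 of 8 and of mesothelium 2 of 6. The median LFC of these 4 lists was -0.45, 0.42, -0.23 and -1.92. The part of all these cells in the levels of the 10 genes was not tested.

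Of 11 genes of LXR, RXR and their corepressor complexes, 3 were called higher and 2 lower in FeSO4/PBS against NaCl/PBS, shares near the 27.2% and 27.3% of all genes. The counts after FeSO4 in the lists that follow are to be read against the same shares. Those after DEX alone, here and below, are to be read against 6.5% higher and 7.15% lower. Nr1h3, which encodes LXRα, fell from 1623 to 873 normalized counts (LFC -0.89, FDR = 2.1e-05), and Tbl1xr1, which encodes a subunit of a nuclear receptor corepressor complex, rose from 692 to 2400 (LFC 1.80, FDR = 1.3e-07). After DEX alone, 1 of these 11 genes was called higher and 1 lower. The LFC of Nr1h3 after DEX was 0.04, with an interval of -0.20 to 0.28.

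Among 12 other LXR targets, 5 were called higher and 2 lower after FeSO4, with a median LFC of 0.19. Cyp7a1, the rate-limiting enzyme of bile acid synthesis, fell from 6960 to 107 normalized counts (LFC -6.01, FDR = 3.6e-07). Scd1, a fatty acid desaturase, rose from 103588 to 242487 (LFC 1.23, FDR = 0.0027), and Fasn, the fatty acid synthase, rose from 13180 to 19644 (LFC 0.58, FDR = 0.036). The Fasn call was lost without FeSO4/PBS mouse 1 (LFC 0.23, FDR = 0.24) and without NaCl/PBS mouse 2 (FDR = 0.11) or mouse 3 (FDR = 0.080). After DEX alone, 2 of the 12 were called lower.

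Of 15 partners and inhibitors of the lipases, 7 were called higher and 1 lower after FeSO4. Angptl4, an inhibitor of lipoprotein lipase, rose from 1509 to 4382 normalized counts (LFC 1.54, FDR = 1.9e-04), and Angptl8, a relative of it that the liver secretes, fell from 621 to 182 (LFC -1.76, FDR = 2.8e-05). Creb3l3, a liver transcription factor that controls triglyceride clearance genes, rose from 4424 to 10230 (LFC 1.21). DEX alone raised Angptl4 to 2928 (LFC 0.96, FDR = 0.021) and lowered Angptl8 to 114 (LFC -2.44, FDR = 1.8e-05). In that comparison 2 of the 15 were called higher and 2 lower.

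Of 14 other lipases and esterases, 2 were called higher and 3 lower after FeSO4. Pnpla2, the adipose triglyceride lipase, rose from 1257 to 6694 normalized counts (LFC 2.41), and Pnpla3 rose from 33.5 to 149 (LFC 2.12). Lipg, which encodes endothelial lipase and hydrolyses HDL phospholipids, fell from 398 to 88.0 (LFC -2.17, FDR = 1.2e-05). DEX alone moved Lipg in the opposite direction, to 927 (LFC 1.22, FDR = 0.0030). In FeSO4/DEX Lipg was at 94.6, an LFC of -3.29 against NaCl/DEX.

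Of 16 lipoprotein receptors and partners of MYLIP, 4 were called higher and 5 lower after FeSO4, with a median LFC of -0.22. Usp2, a deubiquitinase that acts on MYLIP, fell from 757 to 132 normalized counts (LFC -2.50, FDR = 1.5e-05), and Sort1, the sorting receptor sortilin, fell from 367 to 129 (LFC -1.52). Usp2 rose to 1599 after DEX alone (LFC 1.08, FDR = 0.020).

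Of 15 HDL proteins and genes of cellular sterol handling, 5 were called higher and 3 lower after FeSO4. Apoa4, an apolipoprotein of HDL and chylomicrons, rose from 5090 to 28158 normalized counts (LFC 2.47, FDR = 2.8e-06). The cholesterol acyltransferases split, as Soat1 fell from 146 to 41.7 (LFC -1.79) and Soat2, the hepatocyte form, rose from 682 to 1272 (LFC 0.90). Soat1 is expressed in macrophages, whose markers fell in these groups, and their part was not tested. Of 8 genes of biliary lipid secretion, 2 were called higher and 1 lower, the latter being Atp8b1, a canalicular phospholipid flippase that fell from 737 to 303 (LFC -1.29, FDR = 1.0e-06). Of 10 tested among 14 other ABCA and ABCG transporters, 1 was called higher, Abcg2, a xenobiotic transporter (686 to 869, LFC 0.34), and 3 lower, among them Abca6, a relative of ABCA1 (5465 to 3009, LFC -0.86). The Abcg2 call was lost under scaling by library size alone (LFC 0.02, FDR = 0.87) and without the filter on low counts (FDR = 0.059).

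**Figure D4:**
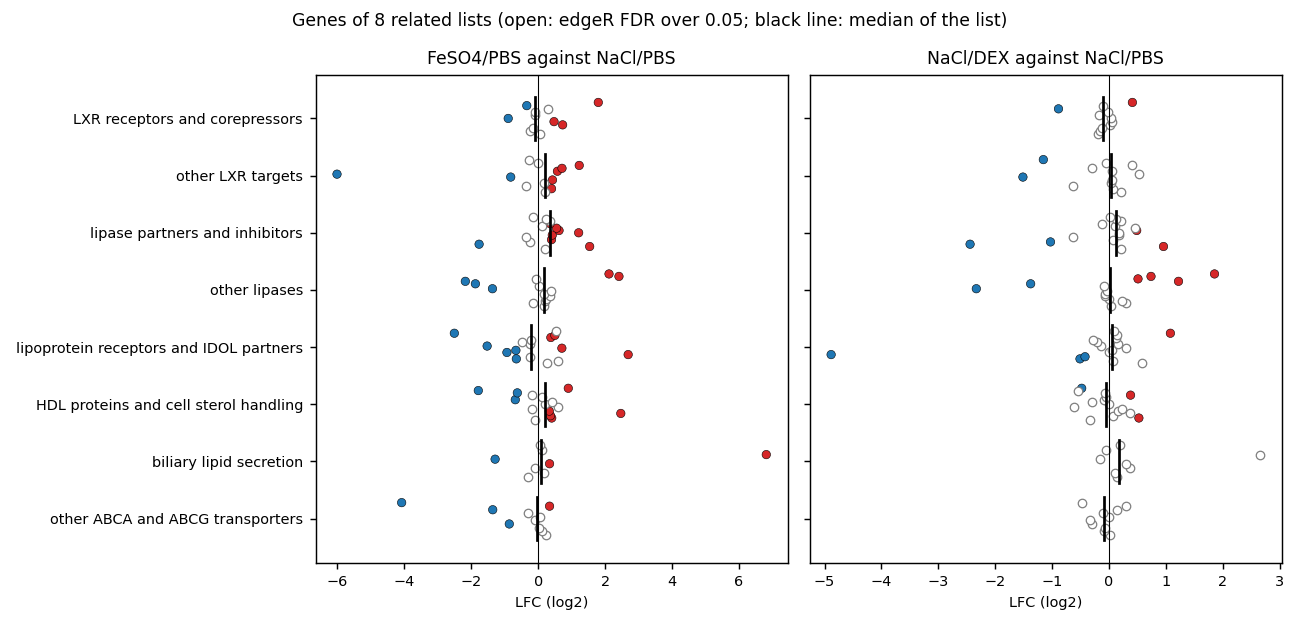
LFC (x axis, log2) of the genes of 8 related lists after FeSO4 (left) and after DEX alone (right). Red and blue points are called higher and lower at an FDR of 0.05 or less, open points are not called, and black lines are list medians. Cyp7a1 lies farthest to the left in the iron panel at -6.01.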

How the data were processed

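The deposited file held raw read counts per gene for 12 livers (4 groups of 3 mice). The authors prepared stranded mRNA libraries (TruSeq), sequenced single ends for 100 cycles on a NovaSeq instrument, mapped reads to mm39 with STAR 2.7.10b, which also counted them per gene, and tested with DESeq2. The strand column of the counting is not given in the sources used here. Here genes were named through GENCODE vM39 on GRCm39, where 54749 of 55414 identifiers had a symbol.

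Counts were fitted with edgeR 4.0.16 (quasi-likelihood test, TMM factors, filterByExpr) over all 12 libraries with 1 coefficient per group, and 4 comparisons of groups and the interaction of iron and DEX were tested over 13857 genes. A gene was called at an FDR of 0.05 or less. The steps were tested on simulated counts. DESeq2 1.42.0 and other scaling, filters and left-out mice served as alternatives. RPKM used canonical transcript lengths. Over all pairs of groups, replicate numbers did not pair the mice, and the main fit left them out.

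The 10 members and the 17 gene lists (8 of related genes, 9 of cell type markers) were chosen with earlier results of these data known. From each related list, up to 3 genes were named that had the largest LFC among those called after FeSO4 with separate groups and at least 100 normalized counts in the higher group. The 3 closest genes in pattern to a member were those with the smallest root mean square difference in centred log2 CPM (0.5 added). Library totals ranged from 16335651 to 23827340 counts. Some genes of these lists are counted but not reported here by name.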

Additional observations from a re-analysis of the deposited data

Results flagged for a closer look

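The difference between the iron effects with and without DEX passed the edgeR test (FDR of 0.05 or less) for 6.18% of all tested genes. The lists are to be read against that share. It was called for 1 of 12 other LXR targets, 1 of 15 lipase partners, and 1 of 15 HDL and sterol handling genes. Of 14 other lipases 2 were higher and 1 lower, and of 16 lipoprotein receptors and MYLIP partners 2 were higher. The remaining lists had 0. The difference passed for 0 of the 10 members. It passed for the following 7 genes of these lists, and a further gene is not reported here by name. It was 1.70 for Srebf1, the SREBP-1 gene and an LXR target (FDR = 0.0017), which had an LFC of -0.28 after FeSO4 without DEX, 1.41 with DEX and -1.15 after DEX alone. It was 2.26 for Angptl8 (FDR = 0.0015), with iron effects of -1.76 without DEX and 0.49 with DEX. It was 2.87 for G0s2, an inhibitor of adipose triglyceride lipase (FDR = 0.017), and -0.78 for its target Pnpla2 (FDR = 0.042). It was 1.30 for Lipe, the hormone-sensitive lipase (FDR = 0.021). It was 0.58 for Lrp1, a remnant receptor (FDR = 0.039). It was -0.53 for Osbpl1a, an oxysterol-binding protein (FDR = 0.043). Srebf1, Lipe, G0s2, Lrp1 and Osbpl1a were chosen for mention with their values in view. All 7 kept their direction under every alternative run. Those of Srebf1, Angptl8 and G0s2 also kept the call. Of 19 alternatives for each gene, the call was lost in 15 for Lrp1, 13 for Osbpl1a, 10 for Pnpla2 and 3 for Lipe. Among these was the replicate block for Lrp1 and Osbpl1a (FDR = 0.072 and 0.079). For Lrp1, Osbpl1a and Pnpla2 the count includes the main fit read with an LFC beyond 1 required, which is no refit.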

How the results depend on the processing

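With an LFC beyond 1 required, the members called higher and lower were 2 and 1 in FeSO4/PBS against NaCl/PBS, 1 and 0 in FeSO4/DEX against NaCl/DEX, and 0 and 0 in NaCl/DEX against NaCl/PBS. Scaling by library size alone gave 5 lower in FeSO4/PBS against NaCl/PBS, and 1 higher and 3 lower in FeSO4/DEX against NaCl/DEX. It turned Lcat from 0.04 to -0.28 in the former. Without the filter on low counts, 1 was higher and 3 lower in FeSO4/DEX against NaCl/DEX, 2 higher in NaCl/DEX against NaCl/PBS, and 1 lower each in FeSO4/DEX against FeSO4/PBS and in the interaction. DESeq2 gave 2 higher in NaCl/DEX against NaCl/PBS and 2 lower in the interaction, the size factors of DESeq2 gave 1 lower in the interaction, and a fit of the 6 libraries alone gave 2 higher in NaCl/DEX against NaCl/PBS. The cause was not tested.

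With each mouse left out in turn, the count was 4 to 4 higher and 2 to 3 lower in FeSO4/PBS against NaCl/PBS, 1 to 2 higher and 1 to 2 lower in FeSO4/DEX against NaCl/DEX, 1 to 2 higher and 0 to 1 lower in NaCl/DEX against NaCl/PBS, and 0 to 1 lower in the interaction. The difference of the log2 ratio of Abcg5 to Abcg8 ran from 0.33 to 0.48 and from 0.58 to 0.67 for FeSO4 without and with DEX, and from -0.22 to -0.08 and from -0.003 to 0.12 for DEX without and with iron.

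Over all pairs of groups, mice with the same number did not deviate together (3 of 18 pairs with r over 0.1, median -0.02). Single pairs of groups differed. Between NaCl/PBS and NaCl/DEX the same-number pairs had r of 0.24, 0.22 and 0.05, and the unlike pairs ran from -0.34 to 0.10. Between FeSO4/PBS and FeSO4/DEX the same-number pairs had r of -0.17, -0.15 and -0.09. The replicate block kept 4 members higher and 2 lower in FeSO4/PBS against NaCl/PBS and changed no call of a member. Of the 390 LFCs of members under the alternatives that kept all mice, 364 kept the call or its absence, 15 gained and 10 lost the call, and 1 changed sign with a call (Lcat). In all 22 changed sign, 1 of them called in either fit. The 390 include the main fit read with an LFC beyond 1 required, which keeps each LFC and can only lose calls.

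Over all genes, FeSO4/PBS against NaCl/PBS gave 3770 higher and 3783 lower, 2285 and 5829 under library size alone, and 1730 and 2040 with an LFC beyond 1. FeSO4/DEX against NaCl/DEX gave 3103 and 2902, and 1474 and 1362 beyond 1. NaCl/DEX against NaCl/PBS gave 901 and 991, 1776 lower under library size alone, and 411 and 473 beyond 1. The interaction gave 414 and 443, 747 lower by DESeq2, 683 and 776 without the filter and 277 lower beyond 1. Under library size alone the share of calls that were higher went from 49.9% to 28.2%, from 51.7% to 34.2%, from 47.6% to 25.8% and, in the interaction, from 48.3% to 63.7%. Without the filter, DEX in iron-loaded liver gave 99 higher and 71 lower. Abcg1 and Mylip rest on few reads, 3 mice per group leave wide intervals, and whole liver does not separate cell types.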
